A study of Mus musculus with 18 samples.

Results

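The genes described here make and load MHC class I molecules. The 10 members were taken as probe sets that carry 1 gene symbol from a fixed list: the light chain B2m, the transporter genes Tap1 and Tap2, the loading factor Tapbp, the immunoproteasome subunits Psmb8, Psmb9 and Psmb10, the transcriptional activator Nlrc5, and the classical heavy chains H2-K1 and H2-D1. Of these, 9 had such a probe set among 19505 genes measured, each with a single probe set, and Nlrc5 was not analysed here. The blood-forming cells came from C57Bl/6J mice and were set against each other between adult bone marrow (BM, mice aged 3 to 12 months) and fetal liver (FL, embryos at E13.5). From each tissue, stem cells with long-term (LT-HSC) or short-term (ST-HSC) repopulating capacity and multipotent progenitors (MPP) were sorted by FACS from the lineage-negative, Sca-1 and Kit positive compartment by their CD150 and CD48 staining. Each of the 6 groups, BM LT-HSC, BM ST-HSC, BM MPP, FL LT-HSC, FL ST-HSC and FL MPP, has 3 Affymetrix Clariom S arrays, lettered a, b and c, and nothing in the labels says whether they came from separate animals or pools, so p-values measure the spread between these samples, which may be technical.

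MHC class I molecules show peptides from inside the cell to CD8 T cells and are read by NK cells as a sign of self. Proteasomes cut proteins to peptides, the TAP transporter carries these into the endoplasmic reticulum, and tapasin holds the empty heavy chain with B2m next to the transporter until a peptide fits. Interferon-gamma raises most of these genes, and the inducible catalytic subunits then take the place of the constitutive ones to form the immunoproteasome.

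The labels and the arrays were checked before the comparisons. The free-text description of all 18 arrays speaks of transplanted marrow carrying a guide RNA, sgEzh2 for 4 FL arrays (LT-HSC a, ST-HSC a, MPP a and MPP b) and sgLuc for the others, which does not match the tissue and stage in the other labels. Groups were taken from the titles. Counts of members called, shares of all genes called and pathway list counts over the populations were also made without these 4 arrays. This leaves 1 FL MPP, 2 FL ST-HSC and 2 FL LT-HSC arrays. Counts by array overlap, at an unadjusted p, of marker genes, by genome position and of lists within a population were not repeated. Both sort markers followed the names: Slamf1, which encodes CD150, had a log2 signal of 9.66 ± 0.40 in BM LT-HSC and 9.31 ± 0.18 in FL LT-HSC, against 7.25 in BM MPP and 6.71 in FL MPP (mean ± SD, n = 3). In ST-HSC it was at 8.04 in BM and 7.49 in FL. Cd48 was at 12.26 in BM MPP and 12.35 in FL MPP, against 10.32 ± 0.95 in BM LT-HSC, 9.83 in BM ST-HSC, 9.79 in FL LT-HSC and 9.96 in FL ST-HSC. Kit was at 13.07 to 13.26 in all 6 group means. Ly6a was not analysed here. Another 4 arrays, BM LT-HSC c, BM ST-HSC b, BM ST-HSC c and FL LT-HSC b, had a narrower spread of values over genes (interquartile range 2.61 to 2.71, against 2.98 to 3.18 in the others). Arrays of the same group correlated at 0.960 to 0.994 over genes, and arrays of different groups at 0.934 to 0.988.

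The start regions of 8 members were found in the RefSeq table of GRCm38.p6, and 5 are shown because they hold, or lack, the interferon and NF-kB motifs known from class I promoters. Each run is the 250 bases before the annotated start site, read 5′ to 3′ on the strand of the gene, and capitals mark a match to a motif searched. The H2-K1 region is chr17:34000348-34000597 (minus strand), that of H2-D1 chr17:35262844-35263093 (plus strand), that of B2m chr2:122147437-122147686 (plus strand), that of Tap1 chr17:34187306-34187555 (plus strand) and that of Psmb10 chr8:105938393-105938642 (minus strand).
H2-K1: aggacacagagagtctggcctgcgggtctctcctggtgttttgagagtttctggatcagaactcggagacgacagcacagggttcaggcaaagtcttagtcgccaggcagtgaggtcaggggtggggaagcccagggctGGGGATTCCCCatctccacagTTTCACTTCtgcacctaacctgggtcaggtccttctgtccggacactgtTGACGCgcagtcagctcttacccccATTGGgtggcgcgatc
H2-D1: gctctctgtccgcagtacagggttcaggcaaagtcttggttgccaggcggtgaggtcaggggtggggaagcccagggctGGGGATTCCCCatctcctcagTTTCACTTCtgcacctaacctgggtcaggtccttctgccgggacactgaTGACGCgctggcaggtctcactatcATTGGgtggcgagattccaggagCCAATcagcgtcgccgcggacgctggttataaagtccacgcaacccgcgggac
B2m: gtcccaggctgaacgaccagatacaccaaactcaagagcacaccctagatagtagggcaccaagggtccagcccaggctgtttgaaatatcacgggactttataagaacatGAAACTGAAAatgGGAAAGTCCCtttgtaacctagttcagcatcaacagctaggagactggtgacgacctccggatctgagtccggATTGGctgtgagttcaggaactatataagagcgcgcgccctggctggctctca
Tap1: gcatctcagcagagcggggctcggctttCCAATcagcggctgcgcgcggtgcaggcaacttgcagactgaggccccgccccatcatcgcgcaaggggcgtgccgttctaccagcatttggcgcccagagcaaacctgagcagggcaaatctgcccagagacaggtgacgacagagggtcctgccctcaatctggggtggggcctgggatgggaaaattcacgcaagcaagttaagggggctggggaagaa
Psmb10: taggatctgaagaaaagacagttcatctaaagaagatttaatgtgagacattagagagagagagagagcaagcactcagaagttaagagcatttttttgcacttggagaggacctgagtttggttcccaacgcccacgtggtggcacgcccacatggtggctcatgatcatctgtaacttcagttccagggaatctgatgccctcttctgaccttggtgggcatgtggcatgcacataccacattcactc

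Motifs were searched on both strands of windows of 300 bases, 250 before and 50 after the start, in 27025 genes. The IRF pair GAANNGAAA was present in H2-K1 and H2-D1, 2 of the 8 member windows, and in 7.56% of all windows. The core of the interferon-stimulated response element, GAAA and GAAA with 2 free bases between them, was present in B2m and in 3.49% of all windows. The NF-kB consensus was found in B2m, H2-K1 and H2-D1, and in 4.35% of all windows. In both heavy chains it lay just upstream of the IRF pair, and in B2m just downstream of the response element. The CRE-like TGACGC was found in H2-K1 and H2-D1 (7.50% of all windows), CCAAT in 6 of the 8 (37.9%), and the GAS motif TTCNNNGAA in Psmb8 (8.47%). The Psmb10 window held none of the motifs. The IRF pair and the response element can overlap in sequence, and each motif was counted on its own. The H2-K1 and H2-D1 windows aligned over 239 columns with 211 identical bases (88.3%), so their probe sets may also share sequence. Tap1 and Psmb9 are transcribed in opposite directions from a shared region, and their windows have 275 bases in common. A match is a string of letters in these windows, not a binding site.

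**Figure D1:**
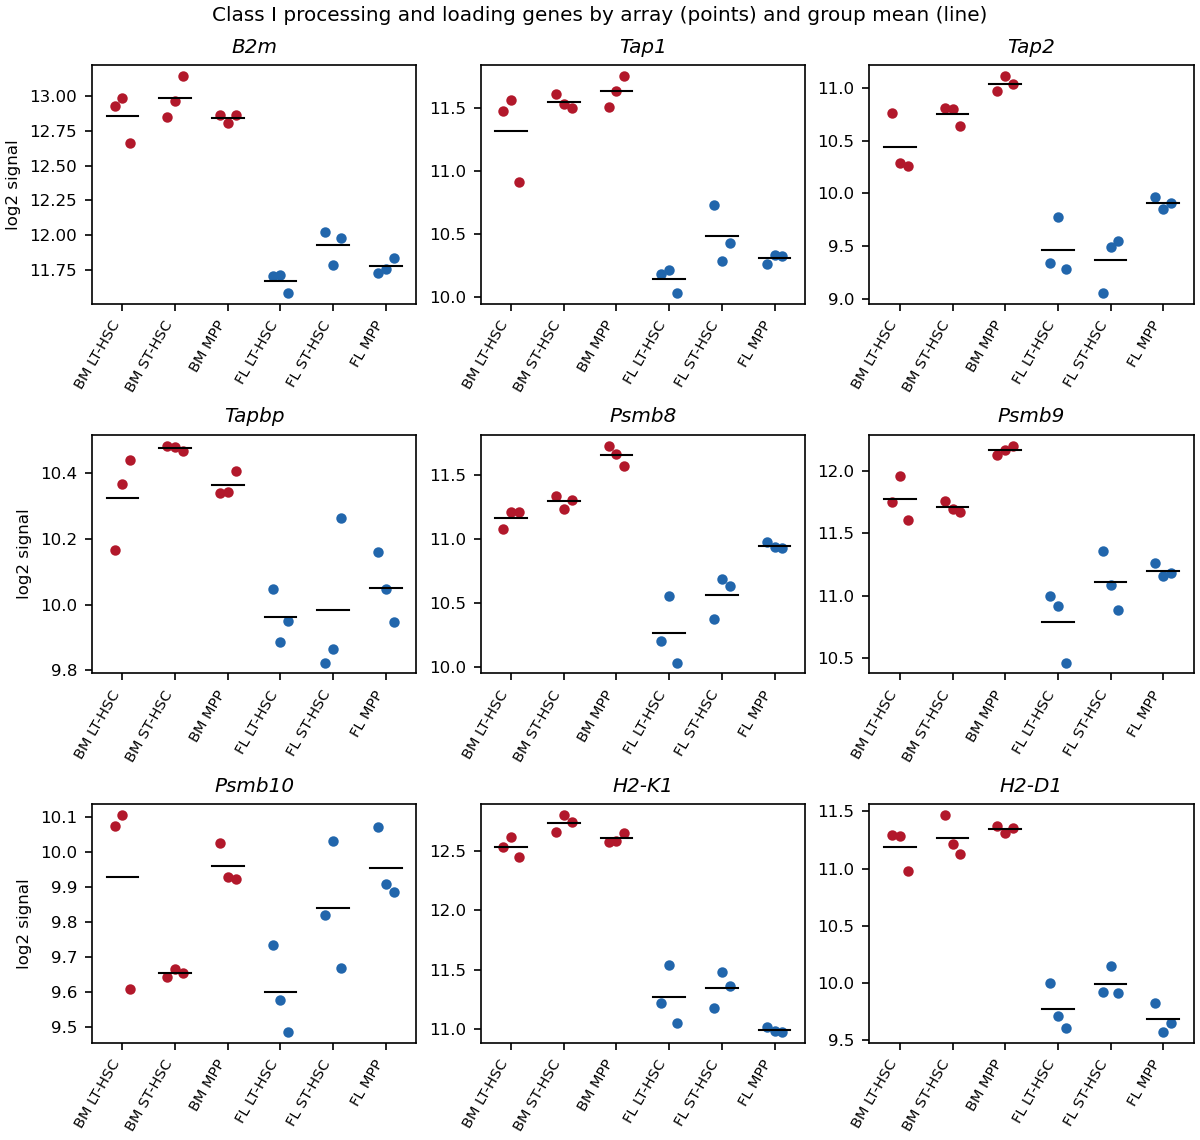
Log2 signal of the 9 measured genes in each array (points; BM red, FL blue) by group, with the group mean as a line. Each panel has its own vertical axis. All 9 BM arrays lie above all 9 FL arrays for 7 of the genes; Tapbp and Psmb10 are the exceptions.

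B2m and both classical heavy chains were higher in BM than in FL in each of the 3 populations. B2m, the invariant light chain that every class I molecule needs for stability, had log2 signals of 12.93, 12.99 and 12.67 in BM LT-HSC, 12.85, 12.97 and 13.15 in BM ST-HSC and 12.87, 12.81 and 12.86 in BM MPP. Its FL arrays read 11.70, 11.71 and 11.58 in LT-HSC, 12.02, 11.78 and 11.98 in ST-HSC and 11.73, 11.76 and 11.84 in MPP. The lowest BM array lay above the highest FL array. The log2 difference, BM minus FL, averaged over the populations was 1.11 ± 0.07 (SE, adjusted p = 1.59e-09, limma), a 2.16-fold higher signal. In bulk arrays of this kind, fewer cells with a transcript and less of it per cell cannot be told apart.

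H2-K1, the heavy chain of H-2K, had log2 signals of 12.54, 12.62 and 12.45 in BM LT-HSC, 12.66, 12.81 and 12.75 in BM ST-HSC and 12.58, 12.59 and 12.65 in BM MPP. The FL values were 11.22, 11.54 and 11.05 in LT-HSC, 11.18, 11.48 and 11.36 in ST-HSC and 11.01, 10.98 and 10.97 in MPP. BM and FL arrays were well apart, and among FL cells the MPP arrays were the lowest. The difference was 1.43 ± 0.07 (adjusted p = 9.92e-11), or 2.69-fold. H2-D1, the heavy chain of H-2D, ranged from 10.97 to 11.47 over the 9 BM arrays (median 11.29), against 9.57 to 10.14 over the 9 FL arrays (median 9.83). Its difference of 1.45 ± 0.08 (adjusted p = 3.04e-10, 2.73-fold) was close to that of H2-K1, with which its probe set may share sequence.

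The genes that feed peptides to these chains were higher in BM as well. Tap1, which with Tap2 forms the TAP transporter, ranged from 10.91 to 11.75 in BM arrays (median 11.54), against 10.03 to 10.73 in FL arrays (median 10.28). The lowest BM array was LT-HSC c, and the groups did not overlap. The difference was 1.19 ± 0.09 (adjusted p = 2.23e-08).

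Tap2 had log2 signals of 10.77, 10.29 and 10.26 in BM LT-HSC, 10.81, 10.80 and 10.64 in BM ST-HSC and 10.98, 11.12 and 11.04 in BM MPP. In FL they were 9.34, 9.78 and 9.28 in LT-HSC, 9.05, 9.49 and 9.55 in ST-HSC and 9.97, 9.85 and 9.91 in MPP. Within each tissue the MPP arrays were the highest, and BM and FL arrays did not overlap. The difference between BM and FL was 1.16 ± 0.09 (adjusted p = 6.02e-08). Tapbp, which encodes tapasin, differed less, at 0.39 ± 0.07 (adjusted p = 0.000631). Its BM arrays spanned 10.17 to 10.48 and its FL arrays 9.82 to 10.26, so that FL ST-HSC c reached into the BM range.

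Of the immunoproteasome subunits, Psmb8 and Psmb9 were higher in BM and Psmb10 did not pass. Psmb8, the inducible chymotrypsin-like subunit, read 11.08, 11.21 and 11.21 in BM LT-HSC, 11.34, 11.24 and 11.31 in BM ST-HSC and 11.73, 11.67 and 11.57 in BM MPP. Its FL arrays read 10.20, 10.55 and 10.03 in LT-HSC, 10.37, 10.68 and 10.63 in ST-HSC and 10.98, 10.94 and 10.93 in MPP. In both tissues the LT-HSC mean was the lowest and the MPP mean the highest. The difference between BM and FL was 0.78 ± 0.08 (adjusted p = 5.41e-07, 1.72-fold).

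Psmb9, which takes the place of the caspase-like subunit, ranged from 11.61 to 12.20 in BM arrays (median 11.76) and from 10.46 to 11.36 in FL arrays (median 11.08), a difference of 0.85 ± 0.09 (adjusted p = 9.13e-07). Psmb10, the inducible trypsin-like subunit, read 10.08, 10.11 and 9.61 in BM LT-HSC, 9.64, 9.67 and 9.65 in BM ST-HSC and 10.03, 9.93 and 9.92 in BM MPP. In FL it read 9.73, 9.58 and 9.48 in LT-HSC, 9.82, 10.03 and 9.67 in ST-HSC and 10.07, 9.91 and 9.88 in MPP. BM and FL arrays were interleaved. The difference of Psmb10 was 0.05 ± 0.08 (adjusted p = 0.697).

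Over the populations, 8 of the 9 measured members were called higher in BM at an adjusted p under 0.05 and none lower, where 9.26% of all genes tested were called higher. For 7 of the 9, all 9 BM arrays lay above all 9 FL arrays, which held for 1.63% of all genes. Both the adjusted p and a 2-fold difference were met by 5 of the 9 and by 1.57% of all genes. The median difference of the 9 was 1.11, against -0.01 over all genes.

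**Figure D2:**
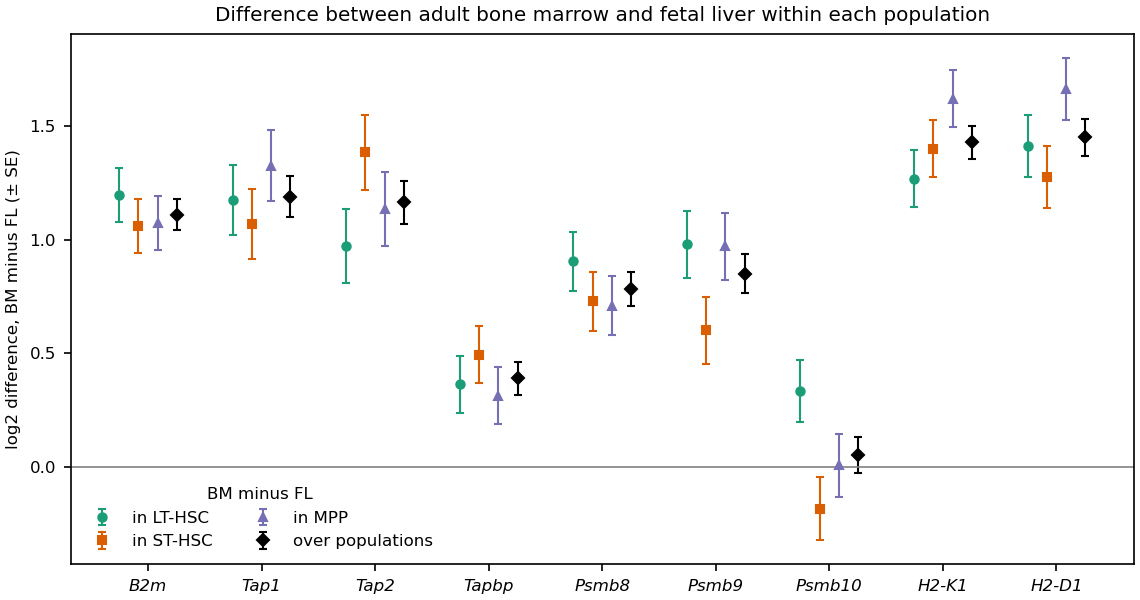
Log2 difference, BM minus FL, of each measured gene within LT-HSC, ST-HSC and MPP and averaged over them, with the standard error of the limma fit; the line marks no difference. B2m, Tap1, Tap2, both heavy chains, Psmb8 and Psmb9 lie above 0 in each population, Tapbp less far, and Psmb10 lies on both sides.

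Within LT-HSC, 7 of 9 members were called higher in BM (4.58% of all genes), led by H2-D1 (1.41 ± 0.14), H2-K1 (1.27 ± 0.13) and B2m (1.20 ± 0.12). Tapbp (0.36 ± 0.13, adjusted p = 0.0938) and Psmb10 (0.33 ± 0.14, adjusted p = 0.176) did not pass. Tap2 (0.97) was not called in a fit of the compared groups alone (adjusted p = 0.0597). Within ST-HSC, 8 of 9 were higher (6.52% of all genes), with Tap2 at 1.39 ± 0.16 and H2-K1 at 1.40 ± 0.13. Psmb10 was at -0.19 ± 0.14 there (adjusted p = 0.345), with each BM ST-HSC array below each FL ST-HSC array (18.8% of all genes). Within MPP, 7 of 9 were higher (3.55% of all genes), with H2-D1 at 1.66 ± 0.14 and H2-K1 at 1.62 ± 0.13, while Tapbp (0.31 ± 0.13, adjusted p = 0.202) and Psmb10 (0.0049 ± 0.14) did not pass. In each population all 3 BM arrays lay above all 3 FL arrays for 8 of the 9 members, which held for 8.02% of all genes in LT-HSC, 16% in ST-HSC and 13.8% in MPP.

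The 3 comparisons within populations use different arrays but share 1 estimate of the spread. Whether the BM minus FL difference of a member depended on the population was tested with a moderated F test, which called none of the 9 (0.82% of all genes). The lowest p of that test was that of Psmb10 (unadjusted 0.0483, adjusted 0.399), the only member under 0.05 before adjustment, where 12.4% of all genes were. Tapbp and Psmb9 in ST-HSC depended on single arrays: Tapbp was no longer called without FL ST-HSC a (0.41, adjusted p = 0.0576) or FL ST-HSC b (0.43, adjusted p = 0.0619), and Psmb9 was no longer called without FL ST-HSC c (0.49, adjusted p = 0.0502). Tapbp in ST-HSC was also not called without the arrays described as sgEzh2 (0.41, adjusted p = 0.108), without the narrow arrays (0.50, adjusted p = 0.114) or in a fit of the compared groups alone (adjusted p = 0.0617), and Psmb9 not without the narrow arrays (0.65, adjusted p = 0.0749). Psmb8 in MPP was no longer called without the 4 arrays described as sgEzh2 (0.73, adjusted p = 0.142), a fit that leaves 1 FL MPP array and assumes that it varies like the other groups.

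Differences between the populations of a tissue were smaller. In BM, LT-HSC were lower than MPP in Tap2 (-0.61 ± 0.16, adjusted p = 0.0428) and Psmb8 (-0.49 ± 0.13, adjusted p = 0.0380), 2 of 9 members where 2.35% of all genes were called lower. Both calls depended on single arrays: neither was left without BM LT-HSC b or without any of the BM MPP or FL MPP arrays in turn, and 1 was left without BM LT-HSC a, BM LT-HSC c, BM ST-HSC b, BM ST-HSC c or FL LT-HSC a. In FL, Psmb8 was lower in LT-HSC than in MPP (-0.69 ± 0.13, adjusted p = 0.00418), the only call among the 9 where 1.84% of all genes were called lower. With only 1 FL MPP array left, once those described as sgEzh2 were set aside, the difference was -0.63 and was not called (adjusted p = 0.408). Tap2 in FL was at -0.44 ± 0.16 (adjusted p = 0.191). Whether the LT-HSC minus MPP difference differed between BM and FL was tested too, and no member passed (0.543% of all genes; adjusted p 0.779 to 0.998), nor was any under 0.05 before adjustment, where 6.85% of all genes were.

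No member was called between LT-HSC and ST-HSC or between ST-HSC and MPP in either tissue by limma. After adjustment, 1.71% of all genes were called for LT-HSC against ST-HSC in BM, 0.559% for LT-HSC against ST-HSC in FL, 6.1% for ST-HSC against MPP in BM and 2.26% for ST-HSC against MPP in FL. At an unadjusted p under 0.05 there were 0 members of 9 for LT-HSC against ST-HSC in BM (12.6% of all genes at that p), 4 for LT-HSC against ST-HSC in FL (8.76%), 3 for ST-HSC against MPP in BM (23.4%) and 4 for ST-HSC against MPP in FL (13.4%). In order of the group means, the 3 BM groups came before the 3 FL groups for each member other than Psmb10. For these 8, neighbouring groups of the same tissue overlapped by array in 21 of 32 steps of the order, and the step from the lowest BM group to the highest FL group had no overlap. For Psmb10 the order mixed the tissues, with BM MPP first and FL LT-HSC last.

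The wider pathway moved in part. For the list counts over the populations given here and below, 9.26% of all genes were called higher and 15.9% lower. Of the loading complex and its chaperones, 6 of 9 genes were higher in BM, 4 of them members, and the others were Calr, the chaperone calreticulin (0.30), and Tapbpl, the tapasin relative TAPBPR (0.26). Neither Calr (0.24, adjusted p = 0.139) nor Tapbpl (0.27, adjusted p = 0.0680) was called without the arrays described as sgEzh2. Canx (0.01), Pdia3 (-0.00476) and Erap1, which trims peptides in the endoplasmic reticulum (0.05), did not pass. Of 6 genes of the immunoproteasome and its activator, Psmb8 and Psmb9 were higher, the assembly factor Pomp was lower (-0.31 ± 0.07), and Psmb10 and the activator subunits Psme1 (-0.05) and Psme2 (-0.07) did not pass. Pomp was not called without the arrays described as sgEzh2 (-0.24, adjusted p = 0.133) or without the narrow arrays (-0.23, adjusted p = 0.0557).

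Constitutive proteasome genes ran the other way from Psmb8 and Psmb9 over the populations. Within ST-HSC, 2 of 2 catalytic and 5 of 11 other core subunits were called lower. It was 0 of 2 and 0 of 11 within LT-HSC, and 0 of 2 and 1 of 11 within MPP. Of all genes, 18.7% were called in either direction within ST-HSC (6.52% higher), 7.66% within LT-HSC (4.58% higher) and 5.47% within MPP (3.55% higher). More genes of any kind were thus called lower within ST-HSC. Without the narrow arrays, 6.19% of all genes were called within ST-HSC. The medians of the 11 were -0.15 in LT-HSC, -0.34 in ST-HSC and -0.13 in MPP. Over the populations, Psmb6 and Psmb7, whose places Psmb9 and Psmb10 take in the immunoproteasome, were both lower in BM (-0.28 and -0.36, adjusted p = 0.00505 and 0.00223). Psmb5 was not analysed here. Of 11 other subunits of the 20S core, 8 were lower and none higher, with a median of -0.22, where 15.9% of all genes were called lower. The largest were Psma4 (-0.48), Psmb3 (-0.31), Psma5 (-0.27) and Psma1 (-0.24). This count fell to 1 without the arrays described as sgEzh2 and to 2 without the narrow arrays, and Psmb6 was not called without the arrays described as sgEzh2 (-0.24, adjusted p = 0.127).

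**Figure D3:**
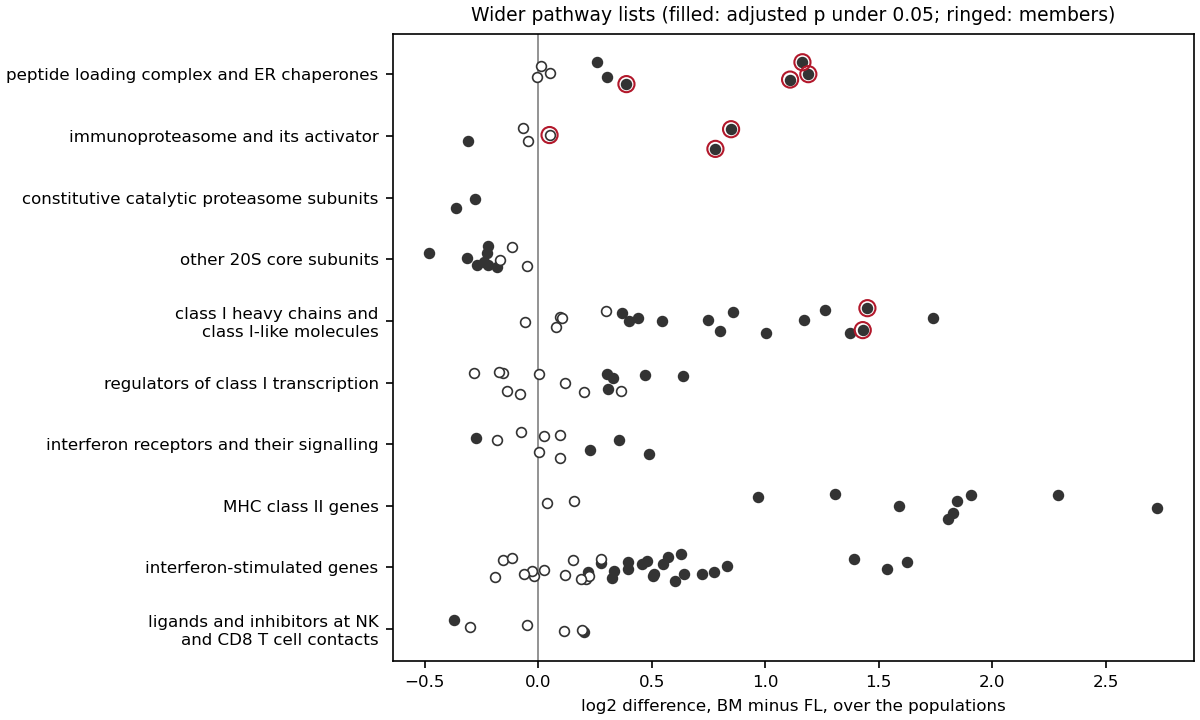
Log2 difference, BM minus FL, averaged over the populations, for each measured gene of the wider lists; filled points passed an adjusted p of 0.05 and red rings mark members. Class I and class II genes lie to the right, the 20S core subunits to the left, and regulators and interferon signalling genes closer to 0. Vertical scatter within a row only separates the points.

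The balance of inducible to constitutive subunits was therefore set side by side within each array. Log2 signals of different probe sets are not comparable as levels, so only the change of the log ratio between groups is read. The log2 ratio of Psmb9 to Psmb6 was 0.23 to 0.46 in BM arrays and -1.17 to -0.56 in FL arrays, with no overlap. Its difference, BM minus FL, was 1.13 over the populations, with 1.18 in LT-HSC, 1.05 in ST-HSC and 1.15 in MPP. The log2 ratio of Psmb10 to Psmb7 was -1.45 to -0.52 in BM arrays and -1.59 to -1.27 in FL arrays, which overlap through BM ST-HSC a. Its difference was 0.41, with Psmb7 at -0.36 and Psmb10 at 0.05, which alone did not pass. Both ratios were chosen after the values were seen and are given as a description, with no test.

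**Figure D4:**
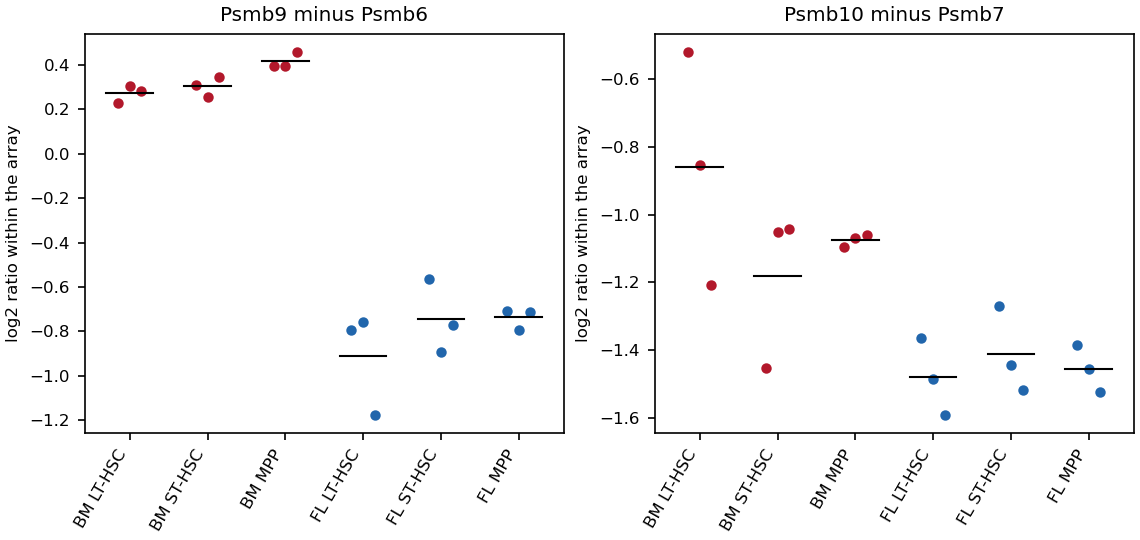
Log2 ratio of an inducible to a constitutive proteasome subunit within each array (points; BM red, FL blue), with group means as lines. The Psmb9 ratio separates all BM arrays from all FL arrays, and the Psmb10 ratio does not.

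Further class I genes were higher in BM too. Of 19 measured heavy chains and class I-like genes, 14 were higher in BM, none lower and 5 did not pass, with a median of 0.75. Beside H2-D1 and H2-K1 the largest were H2-Q4 (1.74) and H2-T22 (1.37). Probe sets of H2 genes can share sequence, so values of related genes may not be independent. H2-T24, H2-M5, H2-M9, H2-M10.1 and Cd1d1, a lipid-presenting relative, did not pass. Without the arrays described as sgEzh2, H2-Q10 (0.37), H2-T3 (0.38) and Hfe (0.44) were not called. H2-Q10 (0.17) and Hfe (0.21) were not called without the narrow arrays. Hfe was also not called without BM ST-HSC c (0.36) or BM MPP b (0.33). H2-M9 was called higher without BM ST-HSC a (0.37) or FL LT-HSC b (0.39). Of 11 class II genes, 9 were higher, with a median of 1.81, and H2-Eb2 and the class II activator Ciita (0.16, adjusted p = 0.248) did not pass; Cd74 was not analysed here.

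Genes upstream of class I transcription moved less. Of 14 measured regulators, 5 were higher, none lower and 9 did not pass, with a median of 0.16. The higher ones were Irf1, an interferon-induced activator of class I promoters (0.64), Stat2 (0.47) and Irf9 (0.33), partners in the complex that binds the response element, the NF-kB subunit Rela (0.31) and Irf8 (0.30). Without the arrays described as sgEzh2 only Irf1 and Stat2 were called, with Irf9 at 0.33 (adjusted p = 0.0542), Rela at 0.33 (adjusted p = 0.116) and Irf8 at 0.31 (adjusted p = 0.149). Genes called lower went to 2 without BM LT-HSC c (Nfyb and Creb1) and to 1 without BM ST-HSC a, BM MPP b, FL LT-HSC b or FL ST-HSC a, and to 3 with array weights. Rfx5 (0.47, adjusted p = 0.0171) and Irf2 (0.28, adjusted p = 0.0343) were called higher without BM LT-HSC c, and also with array weights. Without the narrow arrays, Rfx5 was called higher (0.54, adjusted p = 0.0257) and Irf8 was not called (0.20, adjusted p = 0.0595). Of 10 interferon receptor and signalling genes, Usp18 (0.49), Tyk2 (0.35) and Jak1 (0.23) were higher and Ifnar1, a chain of the type I interferon receptor, was lower (-0.27). Without the arrays described as sgEzh2 only Usp18 was called, with Tyk2 at 0.38 (adjusted p = 0.0655), Jak1 at 0.22 (adjusted p = 0.204) and Ifnar1 at -0.29 (adjusted p = 0.0962). Jak1 was also not called without the narrow arrays or without BM ST-HSC c, FL LT-HSC c, FL ST-HSC b or FL MPP b (0.20 to 0.22, adjusted p up to 0.0929), and Ifnar1 not under quantile normalization (-0.19, adjusted p = 0.0824). Ifngr1 (0.10) and Ifngr2 (-0.18), the receptor for interferon-gamma, did not pass, and Ifngr2 was called lower without BM LT-HSC c (-0.27, adjusted p = 0.00899) and without the narrow arrays (-0.26, adjusted p = 0.0360). Of 34 interferon-stimulated genes, 21 were higher, none lower and 13 did not pass, with a median of 0.37. The largest were Sp100 (1.63), Iigp1 (1.54), Ifi27 (1.39) and the guanylate-binding protein Gbp3 (0.83), while Isg15 (-0.16) and Ifit1 (0.12), both strongly induced by type I interferon, did not pass. Within ST-HSC, 7 were higher and 4 lower (Ifit2 -0.87, Isg15 -0.62, Oas1a -0.46 and Bst2 -0.40), with a median of 0.22. The list had 13 higher and none lower within LT-HSC, and 10 higher and none lower within MPP. Of all genes, 18.7% were called in either direction within ST-HSC, 7.66% within LT-HSC and 5.47% within MPP. Those called higher were 6.52%, 4.58% and 3.55% of all genes. Calls in the lower direction were thus more frequent in ST-HSC over all genes too. A 2-fold difference over the populations was met by 3 of the 21, and Samhd1 was called lower without BM LT-HSC c. Irgm2 (0.34) and Gbp7 (0.32) were called higher without that array. Without the arrays described as sgEzh2, Ifitm2 (0.21), Irgm1 (0.47), Mx1 (0.35), Rsad2 (0.36) and Rtp4 (0.25) were not called. Of 6 measured genes that NK or CD8 T cells meet beside class I, Cd47, a signal against engulfment, was higher (0.20) and Nectin2, a ligand of NK cell receptors, was lower (-0.37). Neither was called without the arrays described as sgEzh2 (Cd47 0.21, adjusted p = 0.155; Nectin2 -0.34, adjusted p = 0.149), and Nectin2 not without the narrow arrays (adjusted p = 0.0541). Cd274, which encodes the inhibitory ligand PD-L1, was called higher without BM LT-HSC c (0.27, adjusted p = 0.0265) and without the narrow arrays (0.36, adjusted p = 0.0100).

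The genome position of the members was compared with the difference. On chromosome 17, 7 of the 9 measured members lie between Tapbp and H2-D1, with Psmb9, Tap1, Psmb8, Tap2 and the class II gene H2-Ob next to each other in that order in the RefSeq table. All 7 were higher in BM, as were 8 of 9 other genes of the lists in this interval. Of 73 further measured genes between Tapbp and H2-D1 that belong to no list, 6 were higher, 12 lower and 55 did not pass, with a median of -0.01. Over all genes, 9.26% were called higher and 15.9% lower, so these genes were close to that share. The largest of these differences were those of Aif1 (1.75) and Pbx2 (-0.99). B2m lies on chromosome 2, and Psmb10 on chromosome 8.

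Over the 18 arrays, each member other than Psmb10 followed the mean of the other 8 (Pearson's r 0.826 to 0.966), and Psmb10 did so less (r 0.238). Without Psmb10, the 28 pairs of members had r between 0.708 and 0.974. With the group means subtracted the same pairs ranged from -0.32 to 0.79 with a median of 0.12, so most of the likeness was shared by group. After that step Psmb10 followed the mean of the other 8 at r 0.597. The remaining members then ran from r -0.245 (Tapbp) to 0.618 (H2-K1). Among genes outside the members, the 8 most like their centred mean were Myl10 (r 0.977), Gm12250 (0.976), Fos (0.971), Cd72 (0.970), Casp1 (0.970), Galnt6 (0.969), AW112010 (0.969) and Ndrg1 (0.968). These points share their arrays and the 6 groups.

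Marker genes of other cell types also differed between BM and FL. Of 8 neutrophil granule genes, all were higher in BM (median 4.84), and their mean log2 signal was 10.50 to 12.97 in BM arrays and 6.19 to 7.58 in FL arrays. Macrophage markers were higher for 5 of 7 (list mean 7.23 to 8.66 in BM and 6.63 to 7.11 in FL), B cell markers for 5 of 7 (7.97 to 9.76 in BM and 6.99 to 7.80 in FL), dendritic cell markers for 2 of 6 (6.70 to 7.67 in BM and 6.54 to 7.24 in FL), and T and NK cell markers for 3 of 6 (6.82 to 8.02 in BM and 6.36 to 7.04 in FL). Hepatocyte markers were lower for 2 of 5 (7.03 to 7.57 in BM and 7.47 to 9.59 in FL) and endothelial markers for 3 of 5 (7.45 to 8.78 in BM and 7.78 to 9.04 in FL), and neither of 2 erythroid genes passed. Array values have no zero, so no marker could be read as absent. In 2 arrays some of the marker lists and the members ran apart. BM LT-HSC c had the highest neutrophil, macrophage and B cell means of all arrays and the lowest mean of the 9 members in BM (11.13, against 11.34 to 11.53 in the other BM arrays). It is also among the narrow arrays. FL LT-HSC c had the highest neutrophil (7.58), hepatocyte (9.59) and erythroid (10.42) means of the FL arrays and the lowest FL mean of the 9 members (10.16, against 10.38 to 10.59 in the other FL arrays). Its dendritic cell (6.54) and T and NK cell (6.36) means were the lowest of the FL arrays, as its member mean was. By group, the neutrophil mean was 12.12 in BM LT-HSC, 11.41 in BM ST-HSC and 10.68 in BM MPP, and the member mean was 11.28, 11.38 and 11.51 in the same order. The dendritic cell mean rose in that order too (7.04, 7.24 and 7.61). Its genes did not all do so. In BM, LT-HSC were called lower than MPP for 3 of 6 and higher for 1. Of all genes, 4.57% were called in that comparison, 2.35% lower. The differences ran from -2.91 to 1.87, and the lowest was that of Flt3, which is also among the sort markers. Macrophage, B cell and T and NK cell means were lowest in ST-HSC among BM groups. In FL LT-HSC, ST-HSC and MPP the member mean was 10.33, 10.51 and 10.53. Dendritic cell (6.63, 6.84 and 7.19) and B cell means (7.10, 7.43 and 7.69) rose with it. T and NK cell and macrophage means also rose in FL. In FL, LT-HSC were called lower than MPP for 1 of 6 dendritic cell and 1 of 7 B cell genes. The same held for 2 of 6 T and NK cell and 1 of 7 macrophage genes, where 1.84% of all genes were called lower. The macrophage genes had a median difference of 0.04 and a lowest of -2.84, so their mean rested on few genes. The neutrophil mean was 6.67, 6.82 and 6.51. The part of these markers in the difference between BM and FL was not tested.

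**Figure D5:**
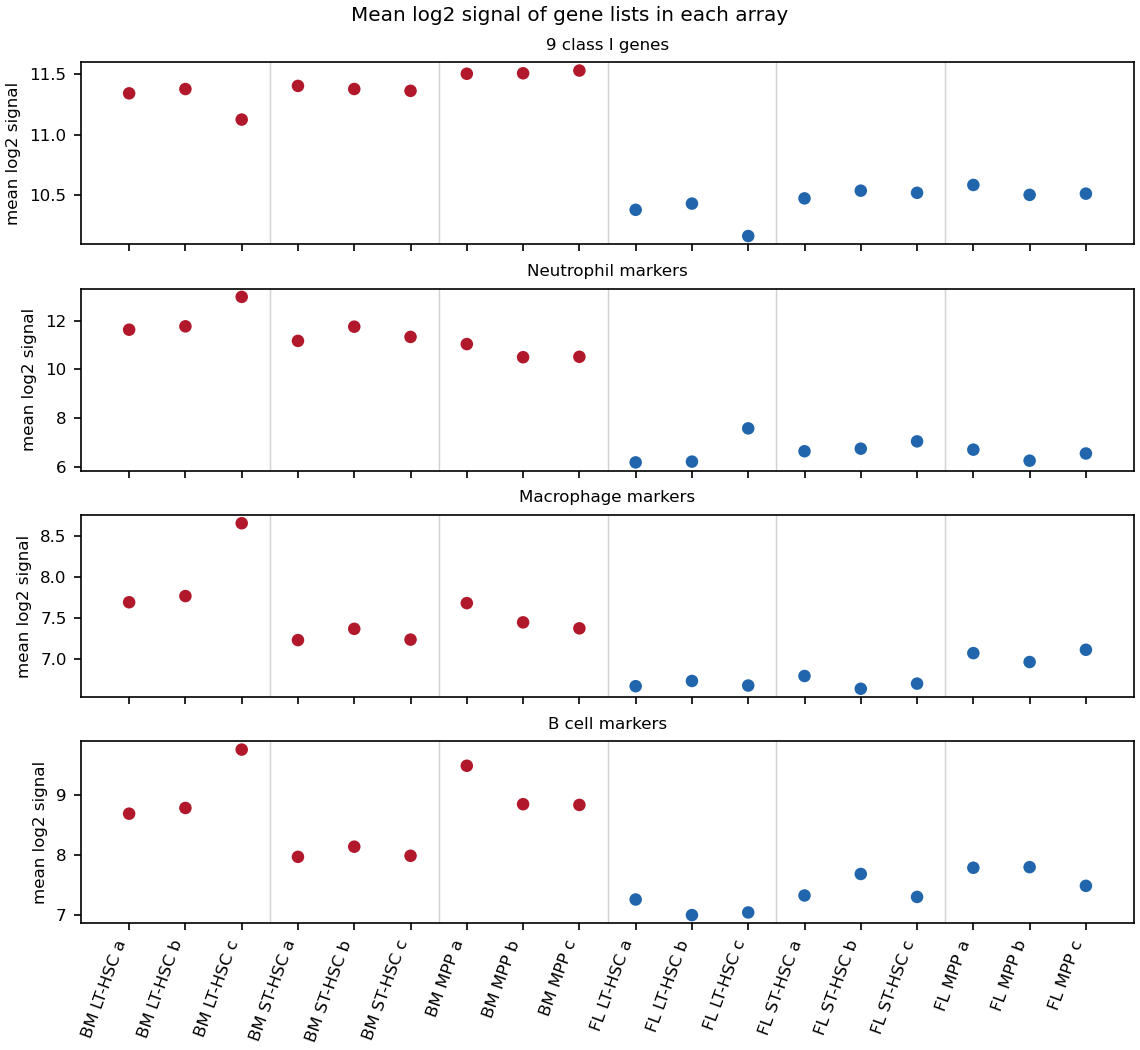
Mean log2 signal of the 9 measured class I genes and of the neutrophil, macrophage and B cell marker lists in each of the 18 arrays (BM red, FL blue). BM LT-HSC c is the highest array for the marker lists and the lowest BM array for the class I genes.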

How the data were processed

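Total RNA of sorted cells was measured on Clariom S arrays, with cRNA made from 2 ng RNA after 10 cycles of PCR, per the labels' protocols. The authors' deposited values are log2 signals; the submitters' processing notes name R 3.5.01 and oligo, and for background correction, normalization and summarization the method is not given in the sources used here. Of 22203 probe sets, 19572 carried 1 gene symbol; the highest by mean was kept per symbol, which left 19505 genes. The 6 group means over 18 arrays were fitted by lmFit and eBayes (limma 3.58.1, R 4.3.3), with Benjamini-Hochberg adjustment over all genes and a threshold of 0.05; the fit was tested on simulated data. The median standard error was 0.17 for 3 against 3 arrays and 0.10 over the populations, a precision set by the number of arrays and the spread between them. The members and lists were chosen with earlier results of these data known. Genes named are the members, up to 4 called genes per list with the largest difference, genes behind counts of 5 or fewer, the 8 most alike, the constitutive subunits and the sort markers; others named were chosen after their values were seen. No pairing by letter was seen, though these values cannot exclude it. Deviations correlated at -0.46 to 0.53 (median -0.03) in 45 pairs of same-lettered arrays of different groups. In 90 such pairs with different letters they correlated at -0.61 to 0.55 (median 0.02). Sequences are from RefSeq.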

Additional observations from a re-analysis of the deposited data

How the results depend on the processing

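Alternatives changed 1 choice at a time. The count of members called for BM against FL over the populations stayed at 8 with each array left out, was 8 without the 4 narrow arrays, and was 5 when a fold of at least 2 was asked for. That fold left 4 in LT-HSC (of 7) and 5 in ST-HSC (of 8); leaving out 1 array gave 7 to 8 in LT-HSC, 7 to 8 in ST-HSC and 7 in MPP. For LT-HSC against MPP in BM, 2 members became 0 under quantile normalization, under the fold, without the arrays described as sgEzh2 and with only the groups compared, 1 with a fixed replicate block and 1 without the narrow arrays, and 0 to 2 with 1 array left out. In FL, 1 became 2 with array weights, 2 without the narrow arrays, 0 under the fold and 0 without the arrays described as sgEzh2. For LT-HSC against ST-HSC in BM, 0 became 1 with array weights. For ST-HSC against MPP in BM, 0 became 3 with array weights, 1 with a trend and robust eBayes, and 0 to 1 with 1 array left out (1 without BM LT-HSC c or FL LT-HSC c). In FL, 0 became 3 with array weights and 1 without the narrow arrays. The interaction count went to 1 with array weights. The causes were not tested. The fixed replicate block changed no other count by over 1.5 times; the random block had a consensus correlation of -0.01. Directions were tallied only for member differences called in the main fit. None was reversed, and of these recomputed differences 964 kept their call and 51 lost it. Some settings left out only arrays of groups outside the comparison, which can change the call but not the difference. The share of all genes called over the populations was 25.1%, and 13.0% without the arrays described as sgEzh2; in ST-HSC it was 18.7%, 45.3% with array weights and 6.19% without the narrow arrays. The log ratio differences were 1.08 to 1.17 for Psmb9 and 0.35 to 0.48 for Psmb10 over 20 alternatives, added after seeing the data.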
